A study of Mus musculus with 1 sample.

Results

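The genes described here are those that encode the collagen chains, the laminin chains, and the nidogens and perlecan that join them into basement membranes. They were chosen by symbol alone: every gene named Col with 2 numbers around an a, Lama1 to Lama5, Lamb1 to Lamb3, the Lamc genes, Nid1, Nid2 and Hspg2. Of 58 such symbols, 56 had at least 1 UMI (a unique molecular identifier, which counts 1 captured RNA molecule), out of 18722 genes with a UMI in the library. The 56 were 42 collagen genes, 11 laminin genes, and the 3 genes Nid1, Nid2 and Hspg2. Col10a1 and Col28a1 had no UMI.

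The library held testis cells of Wild-type C57BL/6 mice at postnatal day 8, pooled from 3 mice in equal numbers. Spermatogonia had been enriched on magnetic beads against the surface antigen THY1, and a small number of unselected testis cells were spiked back in, so that the sort sets the share of each cell type. Zscan2-knockout cells were not analysed here. Because all cells came from 1 library, no value below has a replicate, no test between classes was made, and every interval covers counting error only.

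Collagens are built from 3 α chains wound into a triple helix, and some of them need chains of different genes in the same cell. The fibrillar collagens form the cables of connective tissue, whereas type IV collagen forms the network of basement membranes. Laminins are trimers of 1 α, 1 β and 1 γ chain that polymerize at the cell surface, and nidogen and perlecan bridge the laminin and type IV collagen layers. In the testis a basement membrane lies between the peritubular myoid cells on the outside of the seminiferous tubule and the Sertoli cells and spermatogonia on its inside.

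Several of the type IV collagen genes lie head to head, and the stretch between or across their starts is shown because the partners are compared below. In GRCm38, the 5′ ends of Col4a1 on the minus strand and Col4a2 on the plus strand were 21 bases apart, with the 2 transcribed regions overlapping. The 5′ ends of Col4a3 and Col4a4 were 72 bases apart on chromosome 1, and those of Col4a5 and Col4a6 were 1309 bases apart on the X chromosome. Bases before the RefSeq starts of Col1a2 and Col3a1 are given as well, since these were the collagen genes with the most UMIs. They were limited to the longest run of the 250 bases outside every exon that GENCODE M21 gives the gene. For Col3a1 that run was the whole 250 bases, and for Col1a2 it was 123 bases that lie in an intron of a longer transcript, which starts at base 4504814 of chromosome 6. Sequences are from RefSeq on build GRCm38.p6, and capitals mark each match, on either strand, to 1 of 3 motifs, which were the CCAAT box, the GC box (GGGCGG) and the TATA box (TATAAA).
Col4a1/Col4a2 start overlap, chr8:11312805-11312826, plus strand: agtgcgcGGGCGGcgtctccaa
Col4a3/Col4a4 gap, chr1:82586850-82586920, minus strand: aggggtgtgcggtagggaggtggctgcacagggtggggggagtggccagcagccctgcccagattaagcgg
Col1a2 before the RefSeq start, chr6:4505370-4505492, plus strand: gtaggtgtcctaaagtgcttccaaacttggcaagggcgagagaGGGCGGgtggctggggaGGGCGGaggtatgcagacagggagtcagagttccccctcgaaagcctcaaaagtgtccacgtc
Col3a1 before the RefSeq start, chr1:45311288-45311537, plus strand: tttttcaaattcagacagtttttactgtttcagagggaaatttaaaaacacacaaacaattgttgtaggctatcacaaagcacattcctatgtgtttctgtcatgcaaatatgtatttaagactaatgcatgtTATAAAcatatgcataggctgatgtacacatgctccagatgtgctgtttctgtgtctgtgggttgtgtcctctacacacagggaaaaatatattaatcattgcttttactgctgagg

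The stretch across the Col4a1 and Col4a2 starts held GGGCGG once, and the gap between Col4a3 and Col4a4 held none of these motifs. The Col1a2 stretch held GGGCGG at 2 places, and the Col3a1 stretch, at 35.2% G and C against 59.3% for Col1a2, held TATAAA once. RefSeq promoter windows of 250 bases before to 50 after the start were matched by symbol for 42 of these genes, with 46 windows. Of those windows, 60.9% held GGGCGG or its complement CCGCCC, 32.6% held CCAAT or ATTGG and 10.9% held TATAAA or TTTATA. Over all 32851 windows of the same length the shares were 35.7%, 37.4% and 13.6%. A match is a description of the letters and not a binding site.

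After filtering, 920 of 970 cells were kept, and clustering was run without the genes described here so that they could not define the clusters in which they were compared. There were 324 germ cells, 255 Sertoli-like cells, 186 stromal-like cells and 94 peritubular myoid-like (hereafter myoid-like) cells. Another 35 cells were macrophage-like, and a cluster of 26 cells stayed unnamed because it held pericyte and T cell markers in different cells. Per cell, germ cells were the deepest, with a median of 18216.5 UMIs, against 8370.5 in stromal-like, 7446 in myoid-like and 8343 in Sertoli-like cells. In summed UMIs the classes held 5555070 in germ, 2295655 in Sertoli-like, 1641713 in stromal-like and 740447 in myoid-like cells. Each class carried its own marker list, with 10281 CPM of stromal markers in stromal-like cells, 13440.5 CPM of myoid markers in myoid-like cells, 15722 CPM of Sertoli markers in Sertoli-like cells and 1349.9 CPM of germ markers in germ cells. Stromal-like cells also held 449 CPM of Leydig cell markers, 698 CPM of myoid markers and 642 CPM of Sertoli markers, and myoid-like cells held 1581 CPM of stromal markers. In 1 setting, cells with more UMIs of another class's markers than of their own were left out, among them 16 stromal-like and 2 myoid-like cells. The same genes were then called, with Col1a1 added for stromal-like cells. Beyond that setting, the part of these marker UMIs in the values below was not tested. In the germ class, 1 barcode held 10102 hemoglobin UMIs among its 12196, and the same genes were called without it.

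Levels are given as UMIs summed over the cells of a class in counts per 1000000 UMIs of that class (CPM), with the exact Poisson 95% interval in brackets. For a class with 0 UMIs the level that 3 counts would give is stated in place of an interval. Because UMIs were captured at the 3′ end of each RNA, CPM are compared between classes for the same gene. In stromal-like cells the collagen, laminin, nidogen and perlecan genes took 0.841% of all UMIs (0.827 to 0.855), and in myoid-like cells they took 0.848% (0.828 to 0.87). The share was 0.0569% (0.0539 to 0.0601) in Sertoli-like and 0.0218% (0.0206 to 0.023) in germ cells. The intervals of the stromal-like and myoid-like cells overlapped, and both lay above those of the other classes.

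In total, 33 of the 56 genes had at least 50 UMIs over the 4 classes, and these are given with their levels. A gene was called for a class when its CPM there was at least 2-fold that in each of the other 3 classes. Stromal-like cells led in 14 of the 33 genes, myoid-like cells in 16, Sertoli-like cells in 3 and germ cells in 0, where the shares of all 10710 genes led by these classes were 13.5%, 12.5%, 31.9% and 42.1%. By the 2-fold call, 6 genes were stromal-like (Col3a1, Col5a2, Col5a3, Col23a1, Col25a1 and Nid2), where 2.15% of all 10710 genes with as many UMIs were called. Another 6 were myoid-like (Col4a1, Col4a2, Col4a3, Col4a4, Col6a4 and Lamc3), against 2.1% of all genes. For Sertoli-like cells 3 were called (Col18a1, Lama1 and Lama3), which is 9.09% of the 33 and near the 9.31% of all genes. Germ cells had 0 called, against 17.3% of all genes. Nearest the threshold were Col23a1, at 2.04-fold and called, and Col1a1, at 1.9-fold and not called. Over 17 other settings of the filters, clustering and depth, Col23a1 was not called in 7 and Col1a1 was called in 3. In the 18 genes that were not called, stromal-like and myoid-like cells were the 2 highest classes every time. Among all 10710 genes this held for 1308 of the 7409 that were not called. The median log2 ratio of the highest class over the next was 0.85 for the 33 genes and 0.57 for all genes tested.

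**Figure D1:**
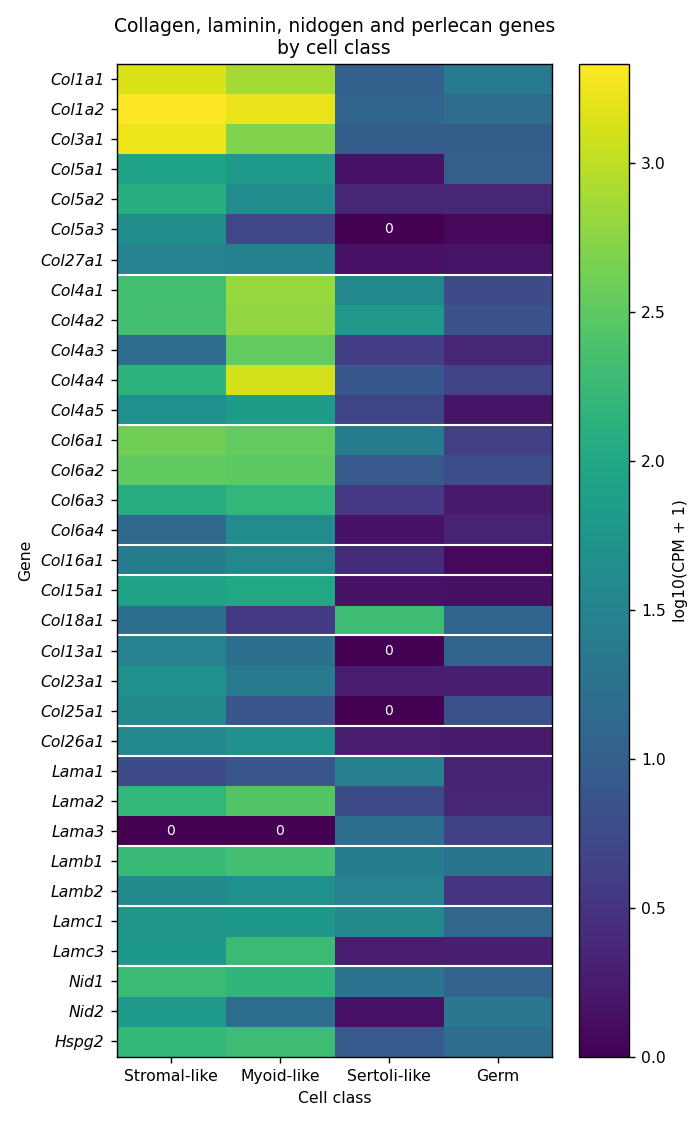
Level of the 33 genes with at least 50 UMIs (rows, grouped by family with white lines) in the 4 cell classes (columns), as log10(CPM + 1), with 0 marking a class without a UMI. The brightest column is the stromal-like or the myoid-like one in 30 of the 33 rows, and Col18a1, Lama1 and Lama3 are brightest in Sertoli-like cells.

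The fibrillar collagens were highest in stromal-like cells for all 7 genes measured at this depth. As a family they reached 5651 CPM in stromal-like and 3145 CPM in myoid-like cells, and 32.7 and 57.8 CPM in Sertoli-like and germ cells. Col1a1, which encodes the α1 chain of type I collagen, was at 1450.3 CPM (1393 to 1509.8) in stromal-like, 762 (700.1 to 827) in myoid-like, 9.58 (6.01 to 14.5) in Sertoli-like and 22.1 (18.4 to 26.4) in germ cells. Its partner Col1a2 was at 2152 CPM (2082 to 2224) in stromal-like, 1709.8 (1617 to 1807) in myoid-like, 11.3 (7.4 to 16.6) in Sertoli-like and 14.8 (11.7 to 18.3) in germ cells. Col1a1 was thus lower in myoid-like cells by more than Col1a2 was. The ratio of Col1a1 to Col1a2 UMIs was 0.674 (0.64 to 0.71) in stromal-like and 0.445 (0.403 to 0.492) in myoid-like cells, a ratio of ratios of 0.661 (0.59 to 0.74). Some myoid-like UMIs were concentrated, with up to 79 of Col1a1 and 130 of Col1a2 in 1 cell.

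Col3a1, the homotrimeric collagen of reticular fibers, was at 1758 CPM (1694 to 1823) in stromal-like, 509 (459 to 563) in myoid-like, 8.71 (5.32 to 13.5) in Sertoli-like and 8.64 (6.37 to 11.5) in germ cells. The log2 ratio of stromal-like over myoid-like cells was 1.79 (1.63 to 1.95) for Col3a1, 0.93 (0.80 to 1.06) for Col1a1 and 0.33 (0.24 to 0.43) for Col1a2, so that the 3 major fibrillar genes differed in how far they separated the classes. The type V chains, which join type I fibrils and limit their width, were also higher in stromal-like than in myoid-like cells. Col5a2 was at 124 CPM (108 to 143) in stromal-like, 40.5 (27.3 to 57.8) in myoid-like, 1.31 (0.269 to 3.82) in Sertoli-like and 1.26 (0.507 to 2.6) in germ cells. Col5a3 was at 43.2 CPM (33.8 to 54.6) in stromal-like, 4.05 (0.836 to 11.8) in myoid-like and 0.18 (0.00456 to 1) in germ cells. It had 0 UMIs in Sertoli-like cells, where 3 counts would give 1.31 CPM. Col5a1 was at 85.9 CPM (72.3 to 101) in stromal-like, 60.8 (44.3 to 81.3) in myoid-like, 0.436 (0.011 to 2.43) in Sertoli-like and 9.18 (6.84 to 12.1) in germ cells, and its 51 germ UMIs came from 41 of the 324 germ cells. The type V chains thus ranged from a log2 ratio of 0.50 (0.01 to 1.02) for Col5a1 to 3.42 (1.81 to 5.73) for Col5a3 between stromal-like and myoid-like cells. Col27a1, a fibrillar gene known from cartilage, was at 28.6 CPM (21 to 38.1) in stromal-like, 28.4 (17.6 to 43.4) in myoid-like, 0.436 (0.011 to 2.43) in Sertoli-like and 0.54 (0.111 to 1.58) in germ cells, with no difference between the 2 highest classes beyond counting error.

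The type IV collagens were highest in myoid-like cells for all 5 genes at this depth, at 3004 CPM as a family against 645 CPM in stromal-like, 109 CPM in Sertoli-like and 16.7 CPM in germ cells. The α1 and α2 chains, which make the network found in nearly every basement membrane, come from Col4a1 and Col4a2. Col4a1 was at 209 CPM (187 to 232) in stromal-like, 662 (604 to 723) in myoid-like, 35.3 (28 to 43.9) in Sertoli-like and 4.86 (3.2 to 7.07) in germ cells. Col4a2 was at 218 CPM (196 to 242) in stromal-like, 616 (561 to 675) in myoid-like, 60.1 (50.5 to 71) in Sertoli-like and 6.12 (4.24 to 8.55) in germ cells. In Sertoli-like cells both stood above their germ cell level, with log2 ratios of germ over Sertoli-like cells of -2.86 (-3.55 to -2.22) and -3.30 (-3.88 to -2.75). The UMI ratio of Col4a1 to Col4a2 was 0.958 (0.824 to 1.11) in stromal-like and 1.07 (0.944 to 1.22) in myoid-like cells. Summed over Sertoli-like cells it was 0.587 (0.441 to 0.778), lower than in stromal-like cells by a ratio of 0.613 (0.442 to 0.846). It was uneven between the Sertoli-like clusters. Col4a1 and Col4a2 had 24 and 60 UMIs in the cluster of 79 cells, against 37 and 52 in that of 132 and 20 and 26 in that of 44. The log2 ratio of the cluster of 132 cells over that of 79 was -0.90 (-1.47 to -0.34) for Col4a2 and -0.07 (-0.85 to 0.73) for Col4a1.

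The α3 and α4 chains, which with α5 form the network best known from the kidney glomerulus, separated the myoid-like class further. Col4a3 was at 14 CPM (8.88 to 21) in stromal-like, 342 (301 to 386) in myoid-like, 3.05 (1.23 to 6.28) in Sertoli-like and 1.26 (0.507 to 2.6) in germ cells. Col4a4 was at 144 CPM (126 to 163) in stromal-like, 1303 (1222 to 1388) in myoid-like, 6.97 (3.98 to 11.3) in Sertoli-like and 3.78 (2.34 to 5.78) in germ cells. The log2 ratio of myoid-like over stromal-like cells was 4.61 (3.99 to 5.29) for Col4a3 and 3.18 (2.97 to 3.39) for Col4a4, against 1.66 (1.46 to 1.87) for Col4a1 and 1.50 (1.29 to 1.70) for Col4a2. When cells were thinned to 5000 UMIs the Col4a3 value was 5.49. In myoid-like cells Col4a4 UMIs outnumbered Col4a1 UMIs by 1.97 to 1 (1.77 to 2.2), whereas in stromal-like cells they were fewer, at 0.688 (0.58 to 0.814). Of the 94 myoid-like cells, 93 held a Col4a4 UMI and 76 a Col4a3 UMI, and all 76 with Col4a3 also held Col4a4. In contrast, 19 of the 186 stromal-like cells held Col4a3, while 99 held Col4a4. Col4a5, on the X chromosome, was at 45.7 CPM (35.9 to 57.3) in stromal-like, 68.9 (51.3 to 90.6) in myoid-like, 3.92 (1.79 to 7.44) in Sertoli-like and 0.54 (0.111 to 1.58) in germ cells, and its neighbor Col4a6 had 24 stromal-like, 9 myoid-like, 0 Sertoli-like and 1 germ UMIs. The partner chains of the α3α4α5 network thus did not share 1 pattern: Col4a5 differed by 0.59 (0.05 to 1.12) (log2) between myoid-like and stromal-like cells.

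**Figure D2:**
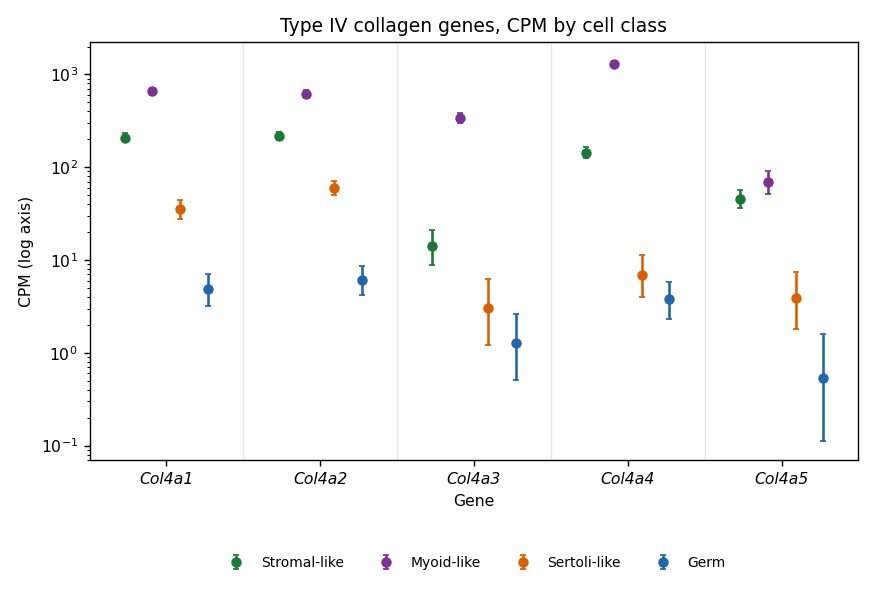
Level of 5 type IV collagen genes in CPM (log axis) by cell class, as points with exact Poisson 95% intervals. The myoid-like points are the highest for all 5 genes, from 68.9 CPM for Col4a5 to 1303 CPM for Col4a4, and the Sertoli-like points of Col4a1 and Col4a2 lie at 35.3 and 60.1 CPM.

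Type VI collagen, whose chains assemble into beaded filaments around cells, was shared by stromal-like and myoid-like cells at 873 and 886 CPM as a family. Col6a1 was at 409 CPM (378 to 441) in stromal-like, 335 (295 to 379) in myoid-like, 24.8 (18.8 to 32.2) in Sertoli-like and 3.24 (1.92 to 5.12) in germ cells. Col6a2 was at 325 CPM (298 to 354) in stromal-like, 311 (272 to 353) in myoid-like, 7.41 (4.31 to 11.9) in Sertoli-like and 5.22 (3.5 to 7.5) in germ cells. Col6a3 was at 120.0 CPM (104 to 138) in stromal-like, 159 (132 to 191) in myoid-like, 2.61 (0.959 to 5.69) in Sertoli-like and 0.72 (0.196 to 1.84) in germ cells. The log2 ratio of the highest over the next class was 0.29 (0.07 to 0.50) for Col6a1, 0.07 (-0.16 to 0.30) for Col6a2 and 0.41 (0.07 to 0.75) for Col6a3, all under 0.5. Summed over Sertoli-like cells, Col6a1 was in excess of Col6a2, with 57 against 17 UMIs, a ratio of 3.35 (1.92 to 6.15) against 1.26 (1.12 to 1.41) in stromal-like cells. The excess was uneven between the Sertoli-like clusters, with 36 against 5 UMIs in the cluster of 132 cells. It was 11 against 7 in the cluster of 79 cells, where 1 cell held 4 Col6a1 UMIs, and 10 against 5 in that of 44. Col6a1 had a log2 ratio of 1.01 (0.01 to 2.14) for the cluster of 132 cells over that of 79. Col6a4, an alternative to the α3 chain, was at 13.4 CPM (8.4 to 20.3) in stromal-like, 39.2 (26.2 to 56.2) in myoid-like, 0.436 (0.011 to 2.43) in Sertoli-like and 1.08 (0.396 to 2.35) in germ cells and was called for myoid-like cells. Its relative Col6a6 had 31 myoid-like, 10 stromal-like, 4 Sertoli-like and 1 germ UMIs, and Col6a5 had 2 UMIs, both in Sertoli-like cells.

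The multiplexins, which lie in or next to basement membranes and release anti-angiogenic fragments, split between the classes. Col15a1 was at 82.2 CPM (68.9 to 97.3) in stromal-like, 98.6 (77.3 to 124) in myoid-like, 0.436 (0.011 to 2.43) in Sertoli-like and 0.36 (0.0436 to 1.3) in germ cells. Col18a1, the source of endostatin, was at 15.8 CPM (10.3 to 23.2) in stromal-like, 2.7 (0.327 to 9.76) in myoid-like, 196 (179 to 215) in Sertoli-like and 11 (8.4 to 14.1) in germ cells. For Col18a1, Sertoli-like cells were 12.4-fold above stromal-like cells, with a log2 ratio of 3.63 (3.06 to 4.26), and 451 of its 540 UMIs over the 4 classes lay in them. Its gene spans chr10:77052178-77166548 on the minus strand. A Col18a1 UMI was found in 75.7% of Sertoli-like cells, with at most 12 in a cell. The 3 Sertoli-like clusters did not differ in it beyond counting error, at 201 CPM (175 to 228) in 132 cells, 203 CPM (171 to 239) in 79 cells and 177 CPM (140.4 to 219.8) in 44 cells. Col18a1 and Col15a1 thus had opposite patterns, since Col15a1 had 1 UMI in Sertoli-like and 2 in germ cells.

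Of the other collagens, Col16a1, a fibril-associated chain, was at 24.4 CPM (17.4 to 33.2) in stromal-like, 35.1 (22.9 to 51.5) in myoid-like, 1.74 (0.475 to 4.46) in Sertoli-like and 0.18 (0.00456 to 1) in germ cells. Col26a1 was at 34.7 CPM (26.3 to 45) in stromal-like, 47.3 (32.9 to 65.7) in myoid-like, 0.871 (0.106 to 3.15) in Sertoli-like and 0.72 (0.196 to 1.84) in germ cells. Neither separated stromal-like from myoid-like cells, with log2 ratios of 0.53 (-0.24 to 1.28) and 0.45 (-0.21 to 1.08) for myoid-like over stromal-like cells. The transmembrane collagens, which span the plasma membrane and have their triple helix outside the cell, were all highest in stromal-like cells. Col23a1 was at 46.9 CPM (37 to 58.6) in stromal-like, 23 (13.4 to 36.8) in myoid-like, 0.871 (0.106 to 3.15) in Sertoli-like and 0.9 (0.292 to 2.1) in germ cells. Col13a1 was at 29.2 CPM (21.6 to 38.8) in stromal-like, 16.2 (8.37 to 28.3) in myoid-like and 10.8 (8.24 to 13.9) in germ cells. Col25a1 was at 38.4 CPM (29.5 to 49.1) in stromal-like, 6.75 (2.19 to 15.8) in myoid-like and 5.76 (3.94 to 8.13) in germ cells. Both had 0 UMIs in Sertoli-like cells, where 3 counts would give 1.31 CPM. Sertoli-like cells thus had 0 UMIs of Col13a1 and Col25a1 in 2295655, while germ cells had 60 and 32, and Col17a1 had 15 stromal-like, 8 germ, 1 Sertoli-like and 0 myoid-like UMIs.

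Laminin α chains, which carry most of the receptor-binding sites of the trimer, were divided between the classes. Lama2, the α chain of muscle laminin, was at 161 CPM (143 to 182) in stromal-like, 277 (240.3 to 317) in myoid-like, 4.79 (2.39 to 8.57) in Sertoli-like and 1.26 (0.507 to 2.6) in germ cells. Lama1, the α chain of the early embryonic laminin, was at 4.87 CPM (2.1 to 9.6) in stromal-like, 6.75 (2.19 to 15.8) in myoid-like, 27.4 (21.1 to 35.1) in Sertoli-like and 1.08 (0.396 to 2.35) in germ cells. Lama3, an α chain of epithelia, was at 15.2 CPM (10.6 to 21.2) in Sertoli-like and 3.6 (2.2 to 5.56) in germ cells. It had 0 UMIs in stromal-like and in myoid-like cells, where 3 counts would give 1.83 and 4.05 CPM. The Lama2 log2 ratio of myoid-like over stromal-like cells was 0.78 (0.51 to 1.05), so that it was higher in myoid-like cells but under the 2-fold call. Lama1 was 5.63-fold higher in Sertoli-like than in stromal-like cells and 4.06-fold higher than in myoid-like cells. For Lama3, Sertoli-like cells were 8.34-fold above the level that 3 counts would give in stromal-like cells, which had 0 UMIs. The interval of that log2 ratio, from the counts as they were, began at 2.69. Sertoli-like cells were 4.23-fold higher than germ cells in Lama3. Both Sertoli-like chains were sparse, with Lama1 in 52 and Lama3 in 31 of 255 cells, and their calls were lost when cells were thinned to 5000 UMIs, which left 40 and 22 UMIs, or limited to a mitochondrial share under 5%, which left 21 and 7.

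Laminin β and γ chains were more widely shared. Lamb1 was at 178 CPM (159 to 200.1) in stromal-like, 213 (181 to 249) in myoid-like, 24.4 (18.4 to 31.7) in Sertoli-like and 18.9 (15.5 to 22.9) in germ cells. Lamb2, a β chain of muscle and kidney basement membranes, was at 38.4 CPM (29.5 to 49.1) in stromal-like, 45.9 (31.8 to 64.2) in myoid-like, 29.2 (22.6 to 37.1) in Sertoli-like and 2.16 (1.12 to 3.77) in germ cells. Among the β chains, Lamb1 UMIs outnumbered Lamb2 UMIs by 4.65 to 1 in stromal-like (3.53 to 6.21) and in myoid-like cells (3.19 to 6.95). Summed over Sertoli-like cells the 2 were about even at 0.836 (0.575 to 1.21). The ratio was 0.181 (0.112 to 0.288) of that in stromal-like cells, a log2 difference of -2.48 that was -3.32 when cells were thinned to 5000 UMIs. This ratio was uneven between the Sertoli-like clusters. Lamb1 and Lamb2 had 31 and 25 UMIs in the cluster of 132 cells and 22 each in that of 79. In the cluster of 44 cells they had 3 and 20. The log2 ratio of Lamb1 over the cluster of 44 cells was 2.06 (0.38 to 4.41) for that of 132 cells and 2.26 (0.53 to 4.64) for that of 79. For Lamb2 the same ratios went the other way, at -0.99 (-1.90 to -0.06) and -0.48 (-1.42 to 0.47), the second not beyond counting error. In germ cells the ratio of Lamb1 to Lamb2 was 8.75 (4.8 to 17.5), with 105 Lamb1 UMIs and 12 Lamb2 UMIs. The Lamb2 level did not differ between Sertoli-like and stromal-like cells beyond counting error, with a log2 ratio of -0.39 (-0.91 to 0.12).

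Lamc1, the γ chain of most laminins, was at 56.6 CPM (45.7 to 69.4) in stromal-like, 59.4 (43.2 to 79.8) in myoid-like, 36.2 (28.8 to 44.8) in Sertoli-like and 11.5 (8.87 to 14.7) in germ cells. Lamc3 was at 59.7 CPM (48.5 to 72.7) in stromal-like, 184 (154 to 217) in myoid-like, 0.871 (0.106 to 3.15) in Sertoli-like and 0.9 (0.292 to 2.1) in germ cells. Lamc3 was called for myoid-like cells, with a log2 ratio of 1.62 (1.24 to 2.01) over stromal-like cells, whereas Lamc1 differed by 0.07 (-0.48 to 0.60) between the same classes. There were 3.09 Lamc3 UMIs for each Lamc1 UMI in myoid-like cells (2.18 to 4.45), 1.05 in stromal-like (0.785 to 1.42) and 0.0241 in Sertoli-like cells (0.0029 to 0.0898). By the chains measured, myoid-like and stromal-like cells held Lama2, Lamb1, Lamb2, Lamc1 and Lamc3. Sertoli-like cells held Lama1 and Lama3, and shared Lamb2 and Lamc1 with both of those classes. Lamb1 in Sertoli-like cells was at 11.4% (8.27 to 15.6) of its myoid-like level, an interval that spanned the 10.2% of the highest stromal or myoid marker there. The next highest such marker was at 2.53%. In Sertoli-like cells 18 of the 45 cells with Lamb1 also had Lamc1. At this depth a cell without a UMI of a chain cannot be read as lacking it.

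The linkers followed the laminin chains of the stromal-like and myoid-like cells in part. Hspg2, which encodes perlecan, was at 164 CPM (145 to 185) in stromal-like, 199.9 (169 to 235) in myoid-like, 7.84 (4.65 to 12.4) in Sertoli-like and 14.8 (11.7 to 18.3) in germ cells. Nid1 was at 188 CPM (168 to 210.4) in stromal-like, 155 (128 to 186) in myoid-like, 17.9 (12.8 to 24.2) in Sertoli-like and 10.1 (7.61 to 13.1) in germ cells. Neither differed between stromal-like and myoid-like cells beyond counting error, at log2 ratios of 0.28 (-0.02 to 0.58) for myoid-like over stromal-like and 0.28 (-0.04 to 0.60) for stromal-like over myoid-like cells. Nid2, the second nidogen, was at 60.3 CPM (49 to 73.4) in stromal-like, 14.9 (7.42 to 26.6) in myoid-like, 0.436 (0.011 to 2.43) in Sertoli-like and 20.9 (17.3 to 25) in germ cells, and its gene spans chr14:19751265-19811787 on the plus strand. Among the 4 classes, germ cells were the next highest for Nid2, with a log2 ratio of stromal-like over germ cells of 1.53 (1.13 to 1.93). Germ cells were 47.9-fold above Sertoli-like cells, where 1 UMI was seen. With a mitochondrial share under 5%, which left 67 germ cells, the log2 ratio of stromal-like over germ cells was 2.42. Outside the 4 classes, the 35 macrophage-like cells held Nid2 at 32.9 CPM (19.2 to 52.7), from 17 UMIs. In Sertoli-like cells Nid1 was highest in the cluster of 79 cells, at 32.8 CPM (20.8 to 49.2) against 9.68 CPM (4.83 to 17.3) in the cluster of 132 cells, and at 15.3 CPM (6.14 to 31.5) in the cluster of 44 cells, which did not differ from that of 79 cells beyond counting error.

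**Figure D3:**
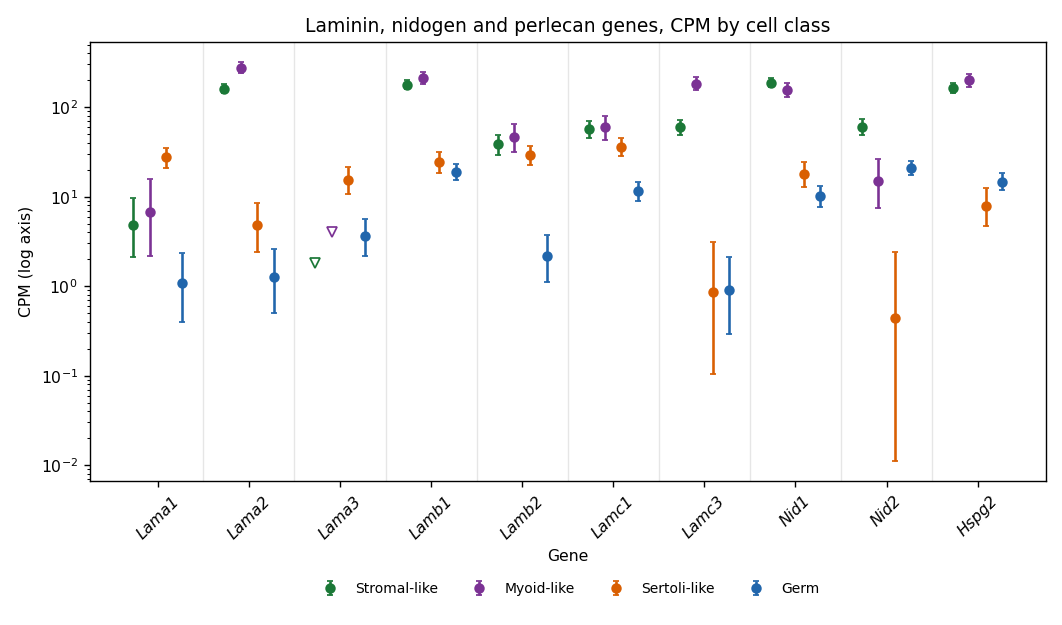
Level of 7 laminin genes, Nid1, Nid2 and Hspg2 in CPM (log axis) by cell class, as points with exact Poisson 95% intervals, and an open triangle at the level that 3 counts would give where a class had no UMI. Lama1 and Lama3 are highest in Sertoli-like cells, at 27.4 and 15.2 CPM, and the germ point of Nid2 lies at 20.9 CPM above the Sertoli-like point at 0.436 CPM.

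Free RNA from broken cells gives UMIs in cells that do not express a gene, so germ cell levels were set beside those of stromal and myoid markers in the same germ cells. For the 16 such marker genes with enough UMIs, the germ CPM was a median of 0.416% of the highest somatic class. It was at most 3.33% (1.49 to 6.78), for Des with 10 germ UMIs. For the 30 genes described here that were highest in stromal-like or myoid-like cells, the germ CPM was a median of 1.27%, with a range of 0.29% to 36.9%. The major chains lay within the marker range, with Col1a1 at 1.53%, Col3a1 at 0.492%, Col1a2 at 0.686%, Col4a1 at 0.734% and Col4a4 at 0.29%. The UMI ratio of Col1a1 to Col1a2 in germ cells was 1.5 (1.13 to 2.01). That was 2.23 (1.66 to 2.99) times the ratio in stromal-like cells, and the source of the difference was not tested. In 8 genes the whole interval lay above the highest marker, which were Col13a1 at 36.9% (24.9 to 55.2), Nid2 at 34.6% (26.3 to 45.7), Lamc1 at 19.4% (13 to 29.1), Col25a1 at 15% (9.49 to 23.3), Col5a1 at 10.7% (7.6 to 14.8), Lamb1 at 8.86% (6.85 to 11.4), Hspg2 at 7.39% (5.57 to 9.74) and Nid1 at 5.36% (3.95 to 7.14). The intervals of Hspg2 and Nid1 overlapped that of Des. How many of all genes highest in these classes pass the same limit was not counted. The markers were chosen to name cell types, so the 8 cannot be read as more than other genes would give. With a mitochondrial share under 5%, 67 germ cells with 493287 UMIs were left, 9 of them from the germ cluster of 187 cells and 50 from that of 63 cells, and the median was 0.306% for the 30 genes and 0.386% for the markers. In those cells the 8 genes had 1 to 5 UMIs each. Nid2 was at 18.6% (5.9 to 45.3) and Col13a1 at 27.5% (7.19 to 75.5). Their intervals lay above 3.33%, but that is the level of Des in the full germ class. The highest marker was not determined again in the 67 cells, so these 2 genes cannot be set against it there. For the 11 Sertoli markers with enough UMIs, the germ CPM was a median of 1.04% of the Sertoli-like level and at most 1.5%, for Clu. Of the 3 genes highest in Sertoli-like cells, Col18a1 was at 5.59% (4.21 to 7.32) and Lama3 at 23.6% (12.9 to 42.1). Lama1, at 3.94% (1.39 to 9.05), had an interval that spanned the level of Clu. In Sertoli-like cells the 16 stromal and myoid markers were a median of 0.368% of the highest class and at most 10.2%, for Mylk. There Lamb2, at 63.6% (41.5 to 99.1), and Lamc1, at 60.8% (41.7 to 89.8), were the 2 of the 30 genes with intervals above that marker. Mylk stood apart from the other markers, of which the next, Myl9, was at 2.53%. The intervals of Col4a1 (4.16 to 6.76), Col4a2 (8.01 to 11.8), Col6a1 (4.55 to 7.97), Lamb1 (8.27 to 15.6) and Nid1 (6.68 to 13.2) also lay above Myl9.

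**Figure D4:**
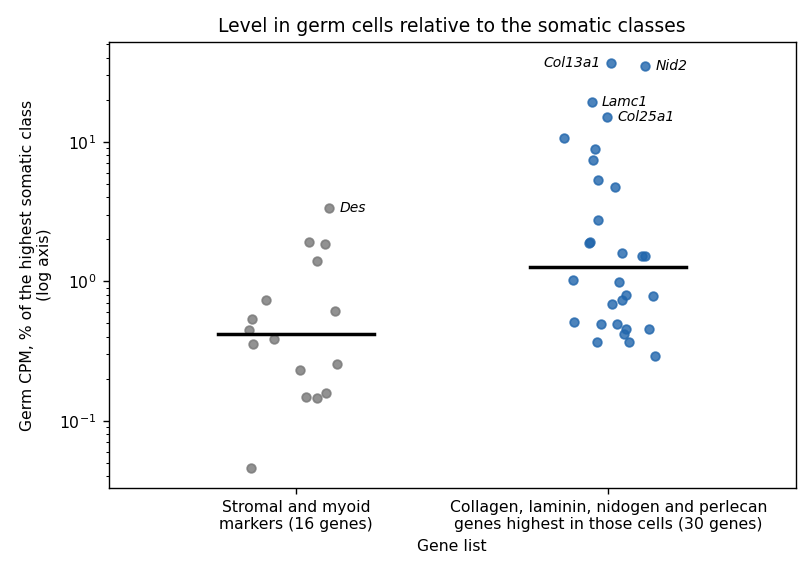
Germ cell CPM as a percentage of the CPM in the highest somatic class (log axis), 1 point a gene with the median as a line, for 16 stromal and myoid marker genes and for 30 collagen, laminin, nidogen and perlecan genes. Col13a1 at 36.9%, Nid2 at 34.6%, Lamc1 at 19.4% and Col25a1 at 15% lie above the highest marker, Des, at 3.33%.

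The germ cells fell into 3 clusters, and some of these genes were uneven between them. The cluster of 187 cells had Ret, Nefm, Gfra1 and Lhx1 among its leading genes, the cluster of 74 cells had Esx1, Prss50 and Ly6k, and the cluster of 63 cells, with a median of 3814 UMIs, had Tuba3a, Stra8 and Uchl1. All 60 germ UMIs of Col13a1 lay in the cluster of 187 cells, at 15.1 CPM (11.5 to 19.4), where the cluster of 74 cells had 0. That is 6.31-fold the level that 3 counts would give in the cluster of 74 cells. The interval of the log2 ratio, from the counts as they were, began at 2.31. For Col25a1, 30 of 32 germ UMIs lay in the larger cluster, at 7.53 CPM (5.08 to 10.8) against 0.796 CPM (0.0201 to 4.43), a fold of 9.47 with a log2 interval of 0.65 to 8.59. Lamb1 was at 23.8 CPM (19.3 to 29.2) against 7.96 CPM (3.82 to 14.6), Nid1 at 12.6 CPM (9.32 to 16.5) against 4.77 CPM (1.75 to 10.4), and Col18a1 at 14.6 CPM (11.1 to 18.8) against 1.59 CPM (0.193 to 5.75). Each of these 3 was higher in the cluster of 187 cells by its log2 interval, which was 0.64 to 2.69 for Lamb1, 0.17 to 2.91 for Nid1 and 1.28 to 6.27 for Col18a1. Col1a1 was also higher there, at 26.9 CPM (22 to 32.5) against 11.9 CPM (6.68 to 19.7), a log2 ratio of 1.17 (0.38 to 2.06). Col22a1 went the other way, at 1.76 CPM (0.706 to 3.62) against 7.16 CPM (3.27 to 13.6), a log2 ratio of -2.03 (-3.69 to -0.43) from 7 and 9 UMIs. Lamc1, Hspg2 and Col5a1 did not differ between the 2 deeper clusters beyond counting error, at 11.5 CPM (8.45 to 15.4) and 12.7 CPM (7.28 to 20.7) for Lamc1. Nid2 was at 24.1 CPM (19.5 to 29.4) and 14.3 CPM (8.49 to 22.6), a log2 ratio of 0.75 (0.01 to 1.57). In the cluster of 63 cells the 9 genes plotted had at most 3 UMIs each. The cluster of 187 cells was higher than it by the interval for Nid2, with a log2 ratio of 1.92 (0.03 to 4.99), and for Lamb1, Col13a1 and Nid1, which had 0 UMIs there and intervals that began at 0.996, 0.316 and 0.0442.

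**Figure D5:**
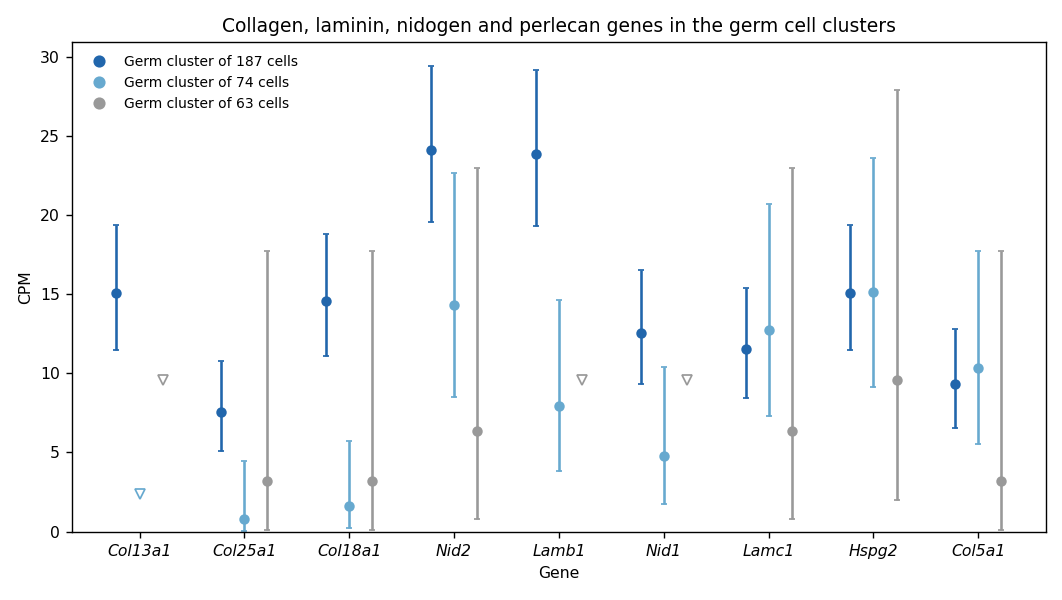
Level of 9 genes in CPM in the germ clusters of 187, 74 and 63 cells, as points with exact Poisson 95% intervals, and an open triangle at the level of 3 counts where a cluster had no UMI. Col13a1 lies at 15.1 CPM in the cluster of 187 cells and has no UMI in the others, while Hspg2 lies at 15.1 CPM in both larger clusters.

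Cells were thinned to 5000 UMIs to compare the share of cells with a UMI, which kept 279 germ, 235 Sertoli-like, 172 stromal-like and 90 myoid-like cells. After thinning, Nid2 was found in 9.32% of germ and 0% of Sertoli-like cells, where it had been 26.9% and 0.392% at full depth. Col13a1 was found in 3.23% of germ and 0% of Sertoli-like cells after thinning. Lamb1, in contrast, was at 8.6% in germ and 8.09% in Sertoli-like cells after thinning, although it was 23.1% and 17.6% at full depth. The order of germ and Sertoli-like cells for Nid2 was the same at both depths. Col1a1, at 7.53% of germ cells after thinning, was found in a like share although its germ CPM was 1.53% of that in stromal-like cells.

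The stromal-like class split into 2 sub-clusters at a finer resolution, again without the genes described here. The first, of 123 cells, had Dlk1, Dcn, Clec3b and Dpt among its leading genes, and the second, of 63 cells, had Cyp26b1, Htra3 and Vcam1. Of 25 genes with at least 50 UMIs in them, 11 were higher in the first by an interval that excluded equality and 3 were higher in the second, against 22.7% and 10.4% of all 3855 genes with as many UMIs, which include those that defined the sub-clusters. The first held more of the fibrillar and type VI chains, with Col5a2 at 172 against 41.5 CPM, Col1a1 at 1967 against 558 CPM, Col3a1 at 2207 against 983 CPM and Col6a3 at 157 against 56.5 CPM. Nid2 was higher there as well, at 76 against 33.2 CPM, with a log2 ratio of 1.19 (0.47 to 1.98). The count of 3 of 25 genes higher in the second was near the 10.4% of all genes. These 3 were Col4a4, at 204 against 109 CPM, Col4a1, at 252 against 184 CPM, and Col26a1, at 48.2 against 26.9 CPM. Lama2, Lamb1, Lamc1 and Hspg2 did not differ beyond counting error, with Lamb1 at 181 against 174 CPM.

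Around these chains, the enzymes and receptors they depend on were counted from lists chosen for their function. Of the enzymes and chaperones that modify collagen, 20 of 28 had enough UMIs, and 1 was called for each class (against 2.15%, 2.1%, 9.31% and 17.3% of all genes), which were Fkbp10 in stromal-like, Lox in myoid-like, P3h4 in Sertoli-like and P3h3 in germ cells. Fkbp10 and P3h3 lay at the threshold, at 2.01-fold and 2.02-fold over the next class. Lox, which cross-links collagen fibrils, was at 48.6 CPM (34.1 to 67.3) in myoid-like against 14 CPM (8.88 to 21) in stromal-like cells. P3h4, a partner of the lysyl hydroxylase, was at 134 CPM (120 to 150.0) in Sertoli-like against 53 CPM (42.4 to 65.4) in stromal-like cells. The median log2 ratio of the highest over the next class for this list was 0.46, below the 0.57 of all genes.

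Of the collagen and laminin receptors, 7 of 13 had enough UMIs, and 3 were called for Sertoli-like cells and 1 for myoid-like cells, against 9.31% and 2.1% of all genes. Itga6, the α subunit of laminin-binding integrins, was at 123 CPM (109 to 139) in Sertoli-like and 31.5 CPM (27 to 36.5) in germ cells, against 3.65 and 4.05 CPM in stromal-like and myoid-like cells. Ddr1, a collagen-binding receptor kinase, was at 101 CPM (88.9 to 115) in Sertoli-like against 11.3 CPM (8.71 to 14.5) in germ cells, and Dag1, named after its values were seen, was the third receptor called there. Bcam, a receptor for laminins with the α5 chain, was at 32.4 CPM (20.8 to 48.2) in myoid-like against 15.7 CPM (11 to 21.7) in Sertoli-like cells. Among 9 other basement membrane genes tested of 15, Smoc2 was called for stromal-like cells at 644 CPM (606 to 684), and Fbln2 for Sertoli-like cells at 29.2 CPM (22.6 to 37.1). Among 9 matrix proteases and inhibitors tested of 12, Mmp2, a gelatinase, was called for myoid-like cells at 131 CPM (106 to 160), and so was Timp3, a matrix-bound inhibitor, at 304 CPM (265 to 346), while Mmp23 was called for Sertoli-like cells at 54.5 CPM (45.3 to 64.9).

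The remaining 23 genes had 1 to 59 UMIs over all cells and fewer than 50 in the 4 classes, and they are given as UMI counts only. Because the classes differ in total UMIs, the order of these counts is not the order of the levels. Lama5, the widespread α chain of mature epithelia, had 39 germ, 4 Sertoli-like, 1 stromal-like and 0 myoid-like UMIs, and Col22a1 had 18 germ and 1 stromal-like UMIs. Col9a3 had 25 Sertoli-like and 5 germ UMIs, whereas Col9a2 had 13 myoid-like, 11 stromal-like, 4 Sertoli-like and 4 germ UMIs and Col9a1 had 4, all in stromal-like cells. These 3 genes encode the chains of type IX collagen, which thus were not found at this depth in 1 class together. Col11a1 had 23 myoid-like, 13 stromal-like, 1 germ and 0 Sertoli-like UMIs. Col14a1 had 21 stromal-like, 11 myoid-like, 7 germ and 2 Sertoli-like UMIs, and Lama4, an α chain of vessels, had 19, 6, 6 and 12 in the same order. Col8a2 had 20 UMIs over the 4 classes, Col12a1 had 9, Col20a1 had 7, Col7a1 had 6, Col8a1 had 5, and Col24a1 had 4. The last, Lamb3, Col2a1, Col11a2 and Col19a1, had 1 to 3 UMIs each.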

How the data were processed

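Cells from 3 Wild-type mice were pooled into 1 droplet library. Per the submitters' processing notes, the authors used mm10 and Cell Ranger 2.1.0, and the deposited matrix held raw counts per gene and cell for 970 barcodes and 27998 genes, 2655 to 44915 UMIs a barcode. The strand setting is not given in the sources used here.

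From these counts, barcodes with under 500 genes (10), a mitochondrial share of 10% or more (36) or a scrublet doublet call (4; scanpy 1.11.5, expected rate 0.01) were left out. Cells were log-normalized to 10000 UMIs and clustered in Seurat 5.3.0 (14 principal components, resolution 0.5) on 880 variable genes after 18 collagen, laminin or nidogen genes were removed from them. A cluster was named from marker lists, by the highest mean difference in log-normalized expression, and stayed unnamed if under 3 markers were found in 10% of its cells, if another class led its top 10 genes or if a second list scored over 0.5 of the first. The last rule was set after the clusters were seen. "X-like" names are rebuilt here and may differ from the study's.

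Levels are CPM of the UMIs summed over a class. Their 95% intervals are exact Poisson, those of ratios exact binomial on the pair of counts. Cells are not replicates, so no p is given. Genes with at least 50 UMIs were named with values, and others by UMI counts, except 1 gene that is not reported here. Of the function lists, the 2 called genes with the highest ratio per class were named. The genes and lists were chosen with earlier results of these data known. Scripts were tested on simulated data. Coordinates are from GENCODE M21 (GRCm38). Alternatives of cell filters, clustering, denominator, depth and thresholds were run.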

Additional observations from a re-analysis of the deposited data

Results flagged for a closer look

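Cells outside the 4 classes held some of these genes above the highest of those classes, with an interval wholly above it. In the unnamed cluster of 26 cells, Lama4, a laminin α chain of vessels, was at 60.6 CPM (29.1 to 111) with 10 UMIs, against 11.6 CPM (6.97 to 18.1) in stromal-like cells. The 10 UMIs came from 5 cells of the cluster, and 1 cell held 5 of the UMIs. This cluster was mixed: in 10 of its cells the UMIs of pericyte markers outnumbered those of T cell markers, at 334 against 1, and in 12 the T cell markers led, at 209 against 0. The other 4 cells had no UMI of either list. The whole cluster also held 1048 CPM of endothelial markers, whose part in these values was not tested.

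In the 10 cells with more pericyte marker UMIs, Col4a1 was at 1658 CPM (1354 to 2011) and Col4a2 at 1642 CPM (1339 to 1993). That was 2.51-fold (2.01 to 3.1) and 2.67-fold (2.13 to 3.31) above myoid-like cells. Of the 103 Col4a1 and 102 Col4a2 UMIs, up to 34 and 31 lay in 1 cell, a spread between cells that the intervals do not cover. In the same 10 cells Col15a1 was at 258 CPM (147 to 418), against 98.6 CPM (77.3 to 124) in myoid-like cells, and Lama4 was at 113 CPM (45.3 to 232) with 7 UMIs. In the 12 cells with more T cell marker UMIs, Col4a1 and Lama4 had 0 UMIs and Col4a2 had 1. The 4 cells with neither marker held Col4a1 at 559 CPM (313 to 923), Col4a2 at 858 CPM (544 to 1287), Col15a1 at 336 CPM (153 to 637) and Lama4 at 112 CPM (23.1 to 327), the last from 3 UMIs. All these cells came from 1 library and were split by their marker UMIs, and the difference was not tested.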

How the results depend on the processing

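No paired analysis was possible because there was 1 library. Of 76 planned recounts of the called genes, 67 stayed within 1.5 times the count given above. At 4-fold in place of 2-fold, 2 genes were called for stromal-like and 2 for myoid-like cells. With at least 20 UMIs, 10 were called for myoid-like cells and 1 for germ cells (Lama5), and with at least 1 UMI these counts were 13 and 5, with 5 for Sertoli-like cells. The shares of all genes called at these other thresholds were not counted, so the counts have no background to be read against. With at least 1 UMI, some calls rest on 1 UMI in the class, as for Lamb3 in myoid-like and Col19a1 in germ cells. For Sertoli-like cells 1 gene was called, Col18a1, with a mitochondrial share under 5% (54 Sertoli-like and 67 germ cells left) and after thinning to 5000 UMIs, because Lama1 and Lama3 then had under 50 UMIs. Over 17 settings that kept the 2-fold and 50-UMI thresholds, Col23a1 was not called in 7, Lama1 and Lama3 were not called in 2 each, and Col5a3 and Col6a4 were not called in 1 each, while Col1a1 was called in 3 and Col13a1 in 1. Of 528 log2 ratios of the highest over the next class, 521 stayed within the main interval, and none that excluded 0 changed sign. Of 144 ratios between partner chains, added after seeing the data, 140 did. Leaving out the hemoglobin-rich barcode, the germ cluster of lowest depth, or each gene's richest cell in every class, all added after seeing the data, changed no count by over 1.5 times. The median germ level was 0.306% to 1.34% of the highest somatic class for the 30 genes and 0.386% to 0.483% for the markers over 18 settings. Depth limits the 23 genes under 50 UMIs.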
